A study of Mus musculus with 6 samples.

Results

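Interferon regulatory and interferon-stimulated genes were examined in mouse cumulus cells, which enclose the oocyte and nourish it inside the follicle. The list named 42 genes, and 41 of them were measured among the 18194 genes of the arrays. A gene was measured where a probe set carried its symbol and no other, and where several did, the brightest on average across the 6 samples was taken, so the choice did not use the difference between the groups. Isg15 was not analysed here, because its probe set carried a second symbol. The hCG-6h group held cumulus cells of wild-type female mice that received 5 IU of equine chorionic gonadotropin (eCG) at 21 days of age and, 46 h later, 5 IU of human chorionic gonadotropin (hCG) for 6 h. The hCG-0h group held cumulus cells of wild-type females given the same eCG for 46 h and no hCG. The eCG stimulates follicle growth and was common to both groups, and hCG is the hormone injected to set off ovulation. Each group held 3 samples, each holding the cumulus cells collected from 50 complexes of cumulus and oocyte, on 1 array, and all values are log2 expression levels after robust multi-array averaging (RMA). For hCG-6h samples 2 and 3 the description field reads 7 h and 8 h, against 6 h in their titles and source names, and both were kept as hCG-6h. The extraction text speaks of whole complexes where the other labels speak of cumulus cells. No group was kept without hCG for those 6 h, so hCG and the longer time cannot be told apart, and separate animals are nowhere stated in the labels, so p-values measure the spread between these samples, which may be technical.

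Interferons are secreted proteins that warn cells of infection. They bind receptor pairs at the cell surface, and kinases of the JAK family then activate STAT proteins, which together with interferon regulatory factors (IRFs) switch on a large set of antiviral genes. Inside the cell, RNA sensors such as RIG-I detect foreign RNA and set off the production of interferon. Interferon-gamma is also known for raising the immunoproteasome and the peptide transporter that load MHC class I molecules, and several of these genes are active in cells without any infection.

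The stretches before the start of transcription were taken from RefSeq (build GRCm38.p6), where 36 of the 41 genes had an entry. The 250 bases before each start were searched on both strands for GAAA, 2 bases of any kind and GAAA again, the core of the element through which IRFs act, and for TTCNNNGAA, the core of the element bound by STAT dimers, which reads the same on both strands. The first motif was found before 9 of the 36 genes and in 21.4% of their 42 windows (some genes have several starts), against 2.98% of all 32851 windows. The second was found before 9 genes and also in 21.4% of the windows, against 7.02% of all. By the outcome of the comparison below, the first motif stood before 0 of 2 genes that rose, 2 of 7 that fell and 7 of 27 that did not pass. The second stood before 1 of 2 that rose, 3 of 7 that fell and 5 of 27 that did not pass. A match describes letters and shows no binding. The sequences shown are those of a factor that fell, a restriction factor that fell, an antiviral gene near the floor of the arrays, and a stretch shared by a pair of neighbouring genes. Capitals mark the motifs, which overlap in Bst2.
Irf1, chr11:53769764-53770013, plus strand: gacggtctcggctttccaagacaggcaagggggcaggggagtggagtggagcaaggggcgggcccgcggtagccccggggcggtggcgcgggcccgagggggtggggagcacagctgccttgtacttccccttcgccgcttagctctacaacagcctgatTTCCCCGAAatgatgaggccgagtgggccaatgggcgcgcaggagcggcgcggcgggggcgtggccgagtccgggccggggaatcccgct
Bst2, chr8:71537473-71537722, minus strand: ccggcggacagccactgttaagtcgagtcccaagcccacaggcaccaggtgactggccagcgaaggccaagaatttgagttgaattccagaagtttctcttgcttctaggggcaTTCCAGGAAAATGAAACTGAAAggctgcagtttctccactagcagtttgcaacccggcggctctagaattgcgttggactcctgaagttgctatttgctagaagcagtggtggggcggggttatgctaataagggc
Ifit1, chr19:34640639-34640888, plus strand: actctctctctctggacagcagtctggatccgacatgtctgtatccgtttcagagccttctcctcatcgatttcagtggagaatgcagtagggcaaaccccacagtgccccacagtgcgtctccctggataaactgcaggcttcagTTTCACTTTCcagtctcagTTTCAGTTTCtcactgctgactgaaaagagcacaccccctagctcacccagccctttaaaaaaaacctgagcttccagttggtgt
Between the starts of Psmb9 and Tap1, chr17:34187331-34187555, plus strand: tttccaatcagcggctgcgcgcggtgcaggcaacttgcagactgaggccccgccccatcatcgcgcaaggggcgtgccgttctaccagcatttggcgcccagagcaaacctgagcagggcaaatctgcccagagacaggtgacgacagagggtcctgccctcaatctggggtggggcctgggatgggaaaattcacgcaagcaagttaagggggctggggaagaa

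Interferon genes moved in both directions, without a common shift. At hCG-6h 4 of the 41 genes rose and 7 fell relative to hCG-0h (limma, adjusted p under 0.05), and 30 did not pass. The background was 10.8% of all 18194 genes higher and 10.5% lower, together 21.3%, and the 11 genes called here were 26.8% of those measured, close to that background. The 3 values of each group did not overlap in 16 of the 41 genes, against 37.9% of all genes. The median log2 change was -0.03, against 0.0067 over all genes. The genes that rose were Rnf125, Oasl2, Usp18 and Isg20. The genes that fell were Slfn4, Psmb9, Bst2, Psmb8, Ifitm2, Irf1 and Ifitm3. In such bulk samples a smaller share of cells with a transcript and less of it per cell cannot be told apart.

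**Figure D1:**
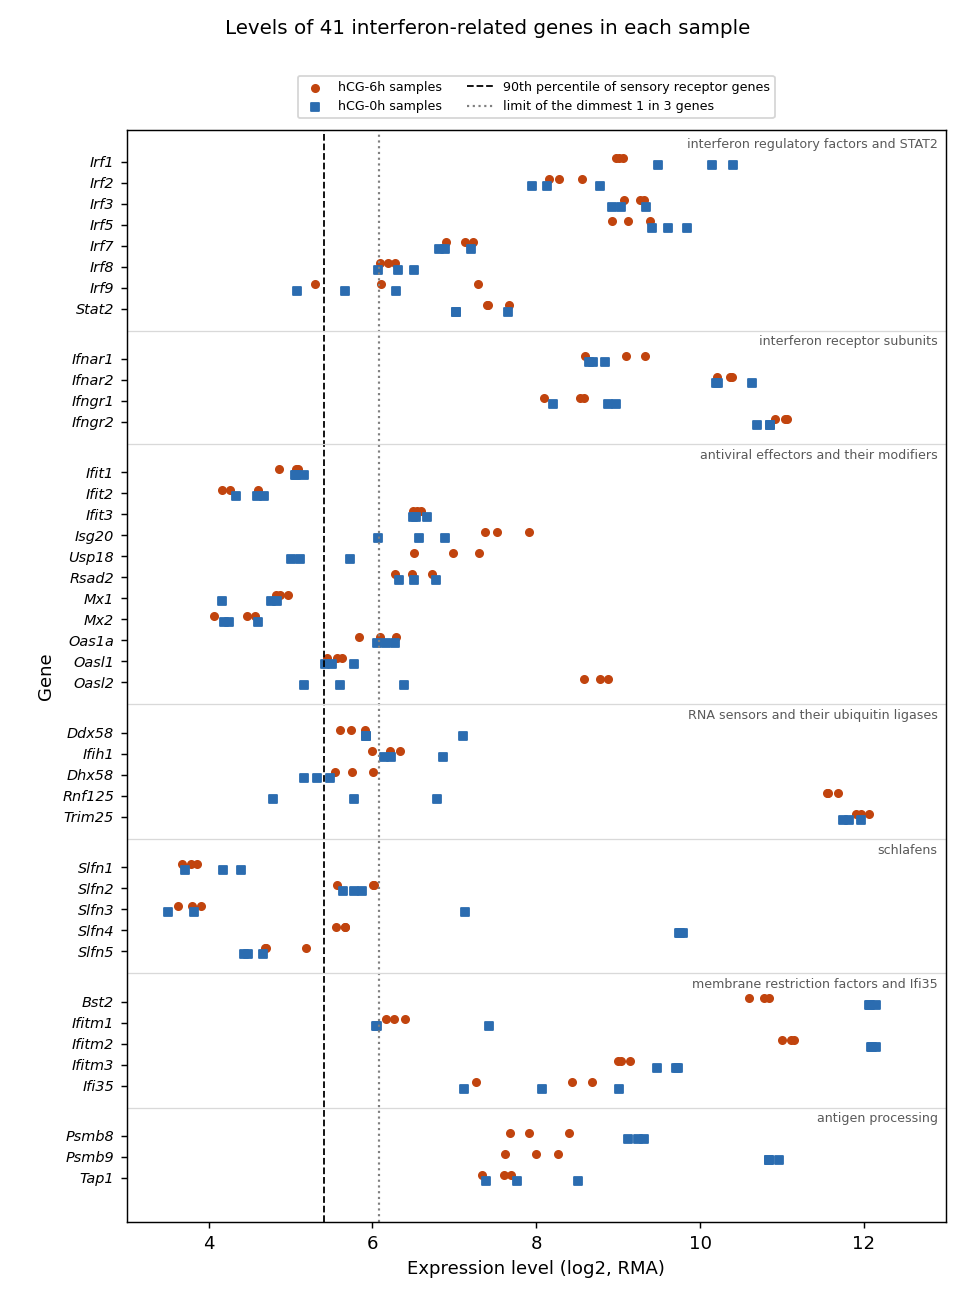
Log2 expression level (RMA) of each of the 41 interferon genes in the 3 hCG-6h samples (circles, upper row of each gene) and the 3 hCG-0h samples (squares, lower row), grouped by role. The dashed line is the 90th percentile of sensory receptor genes (5.41) and the dotted line the limit of the dimmest 1 in 3 genes (6.08), and Rnf125 and Slfn4 show the widest separation between groups.

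No detection calls were among the values, so the floor was set from 72 olfactory, vomeronasal and trace amine receptor genes, which cumulus cells are not known to use. Their median level was 4.08 and their 90th percentile 5.41. In both groups 7 of the 41 interferon genes had means at or under that percentile, namely Ifit1, Ifit2, Mx1, Mx2, Slfn1, Slfn3 and Slfn5. Dhx58 and Usp18 were under it at hCG-0h alone. With the limit of the dimmest 1 in 3 genes (6.08) in its place, 10 genes lay under it in both groups, adding Oasl1, Dhx58 and Slfn2. None of these 10 genes was called, and RMA compresses differences at such levels.

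The samples were checked against cell type markers. None of the 11 measured cumulus and granulosa markers had means under the dim limit in both groups. Of the 11, 7 fell, against 10.5% of all genes, and 0 rose, against 10.8%. The mean level of the list was 9.33 to 9.44 at hCG-6h and 10.87 to 10.95 at hCG-0h. The part of these markers in the results below was not tested. Inha, the inhibin alpha subunit, averaged 13.39 at hCG-6h and 13.46 at hCG-0h. Of 16 leukocyte markers 8 lay under the dim limit in both groups, and the mean level of the list was 5.83 to 5.93 at hCG-6h and 5.68 to 5.81 at hCG-0h. Ptprc, the pan-leukocyte phosphatase, averaged 5.80 at hCG-6h and 5.43 at hCG-0h (adjusted p = 0.144). Of the 16, Cd52, named after its values were seen, rose (adjusted p = 0.00658) and Fcer1g, the one with the highest mean, fell by 0.88 on the log2 scale (adjusted p = 0.0419). Of 12 oocyte markers 9 lay under the dim limit in both groups, while Ooep rose, with 8.54, 8.32 and 8.54 at hCG-6h against 6.19, 6.84 and 6.57 at hCG-0h (log2 change 1.93, adjusted p = 0.000548). The mean level of the oocyte list was higher at hCG-6h, at 5.53 to 5.61 against 5.15 to 5.35 at hCG-0h. Of the 12 markers 7 had log2 changes above 0 and 5 below. Dppa3, named after its values were seen, averaged 7.63 at hCG-6h and 6.67 at hCG-0h and did not pass (adjusted p = 0.0851). The part of oocyte transcripts in the results was not tested. The highest of the theca and stroma markers, Acta2, and of the endothelial markers, Egfl7, did not pass (adjusted p = 0.119 and 0.481). The mean level of the theca and stroma list was 6.12 to 6.26 at hCG-6h and 5.96 to 6.49 at hCG-0h. That of the endothelial list was higher at hCG-6h, at 5.76 to 5.91 against 5.41 to 5.66 at hCG-0h, while Egfl7 had a log2 change of -0.31. None of the 7 endothelial markers was called, against 21.3% of all genes, and 4 had log2 changes above 0 and 3 below. Cdh5, named after its values were seen, had 7.73, 7.92 and 8.63 at hCG-6h against 6.12, 5.74 and 7.52 at hCG-0h. Its log2 change was 1.63 (limma, adjusted p = 0.053). The part of endothelial cells in the results was not tested.

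Among the transcription factors, Irf1 was the one called of 8 measured, or 12.5%, against 21.3% of all genes. Irf1, a factor that interferon-gamma induces and that activates antigen-presentation genes, stood at 9.01, 8.97 and 9.06 in the hCG-6h samples 1 to 3, against 10.40, 10.15 and 9.49 in the hCG-0h samples 1 to 3. The hCG-6h samples lay close together below all hCG-0h samples, which spread widely. Irf1 was lower by a log2 change of -1.0 (± 0.23, SE, adjusted p = 0.0228). That call was lost when any sample other than hCG-0h sample 3 was left out (adjusted p = 0.0534 to 0.0724), and with hCG-6h sample 1 alone (adjusted p = 0.212).

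Irf2, which opposes IRF1 at shared sites, did not pass, at 8.33 ± 0.21 in hCG-6h cells and 8.29 ± 0.44 in hCG-0h cells (SD, n = 3 each). Irf5, a factor of Toll-like receptor signalling best known from leukocytes, stood at 8.92, 9.12 and 9.39 in hCG-6h samples, against 9.84, 9.61 and 9.41 in hCG-0h samples. Its groups lay next to each other without overlap, and it did not pass (adjusted p = 0.0949). Irf7, the factor that amplifies interferon production, averaged 7.09 ± 0.17 at hCG-6h and 6.96 ± 0.21 at hCG-0h. Irf8, a factor of myeloid and lymphoid cells, averaged 6.19 ± 0.10 at hCG-6h and 6.30 ± 0.22 at hCG-0h. Irf9 and Stat2, which act together in the complex that answers type I interferon, had log2 changes of 0.56 ± 0.53 and 0.26 ± 0.20 (SE) and did not pass (adjusted p = 0.531 and 0.431). The Irf9 samples spread more than the groups differed, with 6.11, 5.30 and 7.29 at hCG-6h and 6.29, 5.08 and 5.66 at hCG-0h.

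Irf3, the factor that RNA and DNA sensors activate to start interferon production, depended on the probe set. The probe set taken by the rule stood at 9.07, 9.32 and 9.27 in hCG-6h samples and 8.93, 9.04 and 9.34 in hCG-0h samples, and did not pass (adjusted p = 0.635). A second stood at 9.55, 9.17 and 9.49 at hCG-6h against 8.84, 8.58 and 8.67 at hCG-0h, and was 1.63-fold higher (adjusted p = 0.0176 over all 34958 probe sets). Another stood at 8.51, 8.42 and 8.62 at hCG-6h against 8.11, 7.78 and 7.28 at hCG-0h, and was 1.73-fold higher (adjusted p = 0.0465). The fourth had a log2 change of -0.12 and did not pass. Both called probe sets had hCG-6h values above all hCG-0h values, and whether Irf3 transcripts rose cannot be settled from these probe sets.

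Of the 4 receptor subunits 0 passed by limma, with unadjusted p of 0.0949 or more, against 21.3% of all genes called. Ifnar1, a subunit of the type I interferon receptor, averaged 9.0 ± 0.38 in hCG-6h cells and 8.73 ± 0.10 in hCG-0h cells (SD, n = 3 each). Its partner Ifnar2 averaged 10.32 ± 0.10 at hCG-6h and 10.35 ± 0.25 at hCG-0h. Ifngr1, the ligand-binding chain of the interferon-gamma receptor, averaged 8.40 ± 0.26 at hCG-6h and 8.68 ± 0.42 at hCG-0h, and Ifngr2, its signalling partner, 11 ± 0.08 at hCG-6h and 10.80 ± 0.10 at hCG-0h. The Ifngr2 values of the groups did not overlap, at 11.06, 11.04 and 10.91 in hCG-6h samples against 10.69, 10.85 and 10.86 in hCG-0h samples, although the gene did not pass (adjusted p = 0.237). One other probe set of Ifnar2, dim at hCG-0h, had 6.32, 6.74 and 6.85 at hCG-6h against 5.49, 5.19 and 5.65 at hCG-0h and was 2.29-fold higher (adjusted p = 0.00655 over all probe sets). That probe set did not follow the one taken for the gene, which had a log2 change of -0.03.

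**Figure D2:**
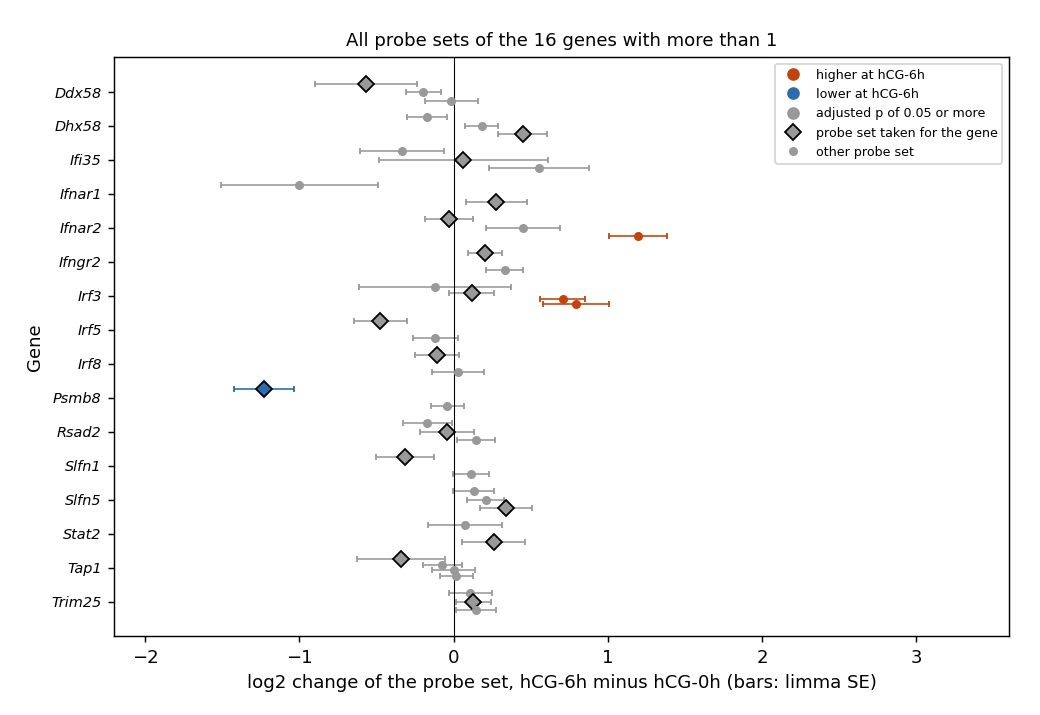
Log2 change (hCG-6h minus hCG-0h, bars are limma SE) of every probe set of the 16 interferon genes that had more than 1. Diamonds are the probe sets taken by the rule and circles the others, of which 3 passed, 2 for Irf3 and 1 for Ifnar2, all higher at hCG-6h.

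Antiviral effectors gave 3 rises among 11 measured genes and no falls, or 27.3% called, against 21.3% of all genes. Oasl2, an OAS-like antiviral protein, stood at 8.58, 8.87 and 8.78 in hCG-6h samples 1 to 3, against 5.60, 6.39 and 5.16 in hCG-0h samples 1 to 3. The hCG-6h samples lay well above all hCG-0h samples, of which samples 1 and 3 were under the dim limit. Oasl2 was 8.15-fold higher (log2 change 3.03 ± 0.30, SE, adjusted p = 0.000708), and its change lay between 2.75 and 3.36 under all other settings. Its neighbour on the chromosome, Oasl1, which in mouse cells restrains the translation of Irf7, stayed dim at 5.57, 5.63 and 5.45 in hCG-6h samples against 5.42, 5.51 and 5.78 in hCG-0h samples.

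Usp18, the protease that strips ISG15 from proteins and dampens signalling by the type I interferon receptor, stood at 6.51, 7.30 and 6.98 in hCG-6h samples, against 5.73, 5.01 and 5.11 in hCG-0h samples. The groups were apart, with hCG-0h cells near the floor. Usp18 was about 3.13-fold higher, a fold that is approximate with hCG-0h cells at the floor (log2 change 1.65 ± 0.26, SE, adjusted p = 0.00557), a call lost with hCG-6h sample 1 alone (adjusted p = 0.106). Isg20, an exonuclease that degrades viral RNA, had 7.91, 7.37 and 7.52 at hCG-6h against 6.07, 6.88 and 6.57 at hCG-0h. Every hCG-6h sample was above every hCG-0h sample, and the gene was 2.13-fold higher (log2 change 1.09 ± 0.24, SE, adjusted p = 0.0188). The call of Isg20 was lost without hCG-0h sample 3, hCG-6h sample 1 or hCG-6h sample 3 (adjusted p = 0.0523, 0.057 and 0.0503) and with hCG-6h sample 1 alone (adjusted p = 0.0854), while its log2 change was 0.94 to 1.13 without these samples.

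The remaining 8 effectors did not pass. Ifit1, Ifit2 and Ifit3, which bind foreign RNA, had log2 changes of -0.09, -0.19 and -0.02. Ifit1 stood at 5.07, 4.86 and 5.09 in hCG-6h samples against 5.17, 5.06 and 5.07 in hCG-0h samples, near the floor in all 6, with the motif pair shown above before its start. Rsad2, the antiviral enzyme viperin, averaged 6.49 ± 0.23 at hCG-6h and 6.54 ± 0.23 at hCG-0h (SD, n = 3 each). Mx1 and Mx2, dynamin-like GTPases that trap viruses, stayed between 4.07 and 4.97 at hCG-6h and between 4.16 and 4.83 at hCG-0h. Oas1a, which makes the messenger that activates RNase L, averaged 6.07 ± 0.23 at hCG-6h and 6.16 ± 0.11 at hCG-0h. Oas1a had the IRF motif before its start too, and it did not pass (adjusted p = 0.724).

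Of the RNA sensors none passed, and a ubiquitin ligase that acts on them gave the widest rise. Of the 5 sensors and ligases 1 was called, or 20%, against 21.3% of all genes. Rnf125, a ligase that marks RIG-I for degradation, stood at 11.69, 11.56 and 11.55 in hCG-6h samples 1 to 3, against 4.78, 5.78 and 6.79 in hCG-0h samples 1 to 3. The hCG-6h samples were tightly grouped and the hCG-0h samples spread around the dim limit. Its log2 change was 5.82 ± 0.46 (SE, adjusted p = 0.000278) and 5.32 to 6.32 under all other settings, and with 1 probe set and a dim baseline the 56.4-fold rise is approximate. Trim25, the ligase that activates RIG-I, was high in both groups at 11.97 ± 0.08 in hCG-6h cells and 11.85 ± 0.11 in hCG-0h cells (SD, n = 3 each, adjusted p = 0.483), and its 3 probe sets had log2 changes of 0.11 to 0.15.

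Ddx58, which encodes RIG-I, stood at 5.91, 5.60 and 5.74 at hCG-6h against 5.92, 7.11 and 5.92 at hCG-0h. The difference came from hCG-0h sample 2, and the other probe sets of the gene did not show it, with log2 changes of -0.20 and -0.02. Ifih1, the sensor MDA5, averaged 6.18 ± 0.17 at hCG-6h and 6.41 ± 0.39 at hCG-0h (adjusted p = 0.52). Dhx58, the sensor LGP2, had 6.01, 5.54 and 5.75 at hCG-6h against 5.16, 5.48 and 5.32 at hCG-0h, dim in both, without overlap and without passing (adjusted p = 0.0908).

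The schlafens, a family with roles in immune cell growth and in restricting viruses, differed from one another. In the reference gene order Slfn2, Slfn1, Slfn4 and Slfn3 follow each other with no protein-coding gene between them, and Slfn5 lies 2 genes away. Slfn4 stood at 5.55, 5.67 and 5.67 in hCG-6h samples, against 9.79, 9.75 and 9.74 in hCG-0h samples. Both groups were tight and far apart, and the hCG-6h samples fell to under the dim limit. Slfn4 was 17.5-fold lower (log2 change -4.13 ± 0.09, SE, adjusted p = 9.91e-06), with a change of -4.21 to -4.09 under all other settings.

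Slfn4 is best known from macrophages and neutrophils. Of the 16 leukocyte markers 8 lay under the dim limit in both groups and 8 did not. The mean level of the list was 5.83 to 5.93 at hCG-6h and 5.68 to 5.81 at hCG-0h. Of the 16 markers 11 had log2 changes above 0 and 5 below, and Cd52 rose while Fcer1g fell. Fcer1g had 6.61, 6.72 and 7.01 at hCG-6h against 7.34, 7.46 and 8.18 at hCG-0h. The part of leukocytes in the Slfn4 result was not tested. Slfn1 and Slfn5 stayed near the floor, with means of 3.78 and 4.86 at hCG-6h and 4.09 and 4.52 at hCG-0h, and Slfn2 averaged 5.87 ± 0.26 at hCG-6h and 5.76 ± 0.12 at hCG-0h (SD, n = 3 each). Slfn3 had 3.80, 3.91 and 3.62 at hCG-6h against 3.50, 7.13 and 3.82 at hCG-0h. Its log2 change of -1.04 came from hCG-0h sample 2 alone and was 0.12 without that sample.

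**Figure D3:**
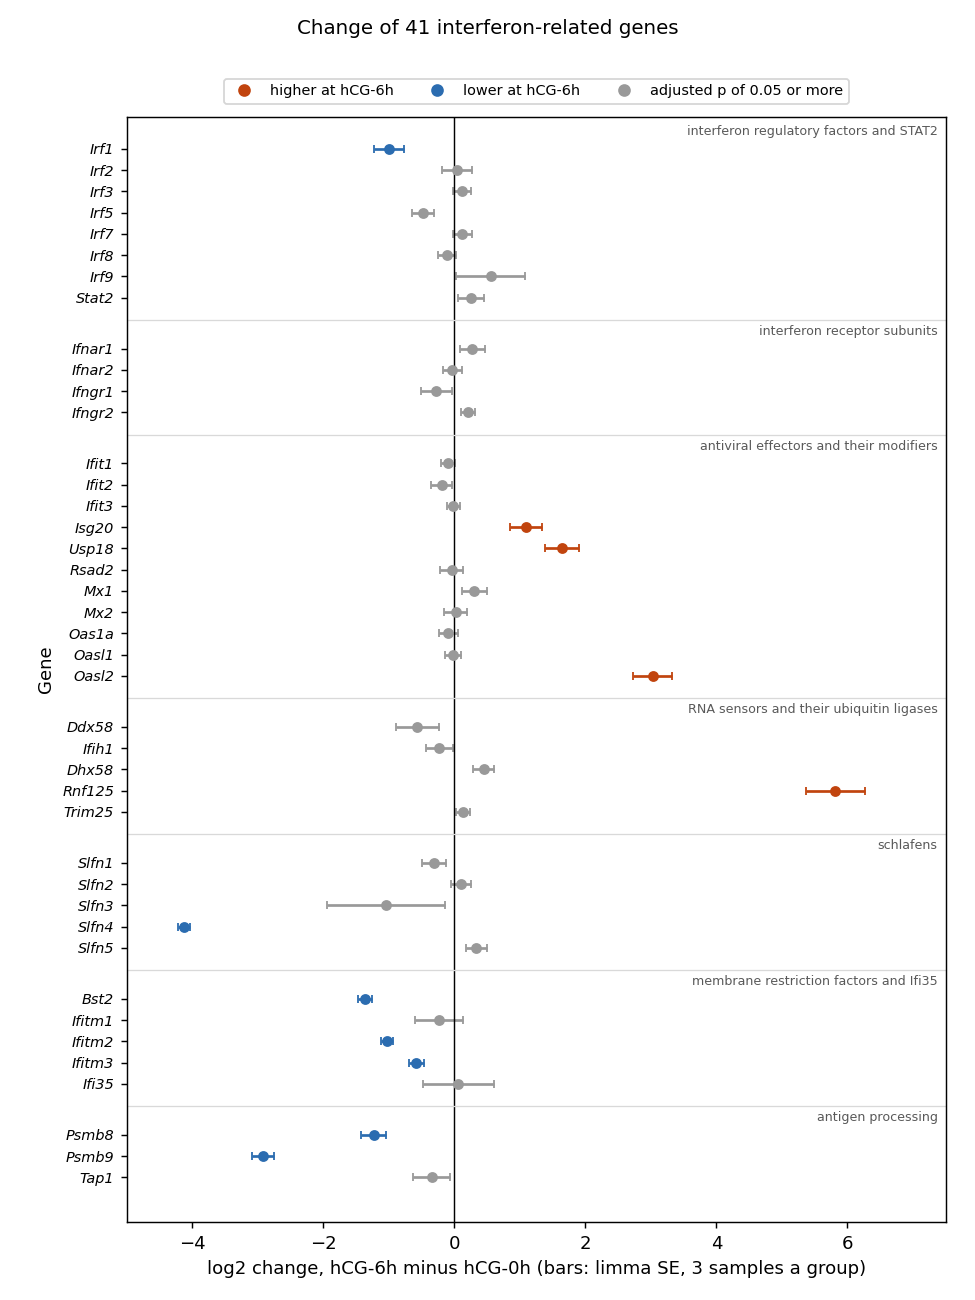
Log2 change of the 41 interferon genes, hCG-6h minus hCG-0h, with limma standard errors (3 samples a group), grouped by role. The 4 rises lie between 1.09 (Isg20) and 5.82 (Rnf125) and the 7 falls between -0.58 (Ifitm3) and -4.13 (Slfn4), with the other 30 in grey.

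Of the 5 genes in the list of membrane restriction factors and Ifi35, 3 fell, against 10.5% of all genes. All 3 were well above the floor in both groups. Bst2, tetherin, which holds budding virus particles at the cell surface, stood at 10.84, 10.60 and 10.78 in hCG-6h samples, against 12.15, 12.08 and 12.06 in hCG-0h samples. The groups were tight and far apart, and Bst2 was 2.56-fold lower (log2 change -1.36 ± 0.11, SE, adjusted p = 0.00028). Ifitm2, which blocks the entry of viruses, had 11.11, 11.15 and 11 at hCG-6h against 12.09, 12.15 and 12.10 at hCG-0h. It was 2.04-fold lower (log2 change -1.03 ± 0.10, SE, adjusted p = 0.000565), and both genes stayed far above the floor at hCG-6h.

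Ifitm3, the family member best known for stopping influenza virus, had 9.03, 9.0 and 9.15 at hCG-6h against 9.73, 9.71 and 9.48 at hCG-0h. It was 1.49-fold lower without overlap (log2 change -0.58 ± 0.11, SE, adjusted p = 0.0128), a call lost with hCG-6h sample 1 alone (adjusted p = 0.133). Ifitm1, which lies between Ifitm2 and Ifitm3 in the reference gene order, stood at 6.17, 6.40 and 6.26 in hCG-6h samples against 7.42, 6.06 and 6.04 in hCG-0h samples, where sample 1 stood apart. Without that sample its log2 change was 0.23 in place of -0.23, and it passed in neither fit. Ifi35, an interferon-induced leucine zipper protein, ranged from 7.27 to 8.68 at hCG-6h and from 7.12 to 9.01 at hCG-0h, and the spread within groups covered any difference (adjusted p = 0.956). Ifitm family members are alike in sequence, and whether a probe set also reads a relative was not tested.

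Of the 3 antigen processing genes on the list 2 fell, against 10.5% of all genes, and Tap1 did not pass. The 2 that fell encode immunoproteasome subunits. Psmb10, a further such subunit, named after its values were seen, did not pass by limma (adjusted p = 0.634). It averaged 9.18 ± 0.29 at hCG-6h and 9.32 ± 0.11 at hCG-0h (SD, n = 3 each). Psmb9, a catalytic subunit that replaces its constitutive counterpart in the immunoproteasome, stood at 8.27, 8.00 and 7.62 in hCG-6h samples, against 10.84, 10.97 and 10.84 in hCG-0h samples. All hCG-6h samples lay far below every hCG-0h sample. Psmb9 was 7.57-fold lower (log2 change -2.92 ± 0.17, SE, adjusted p = 0.000103). Psmb8, the other such subunit on the list, had 7.91, 7.68 and 8.40 at hCG-6h against 9.24, 9.32 and 9.12 at hCG-0h. It was 2.35-fold lower (log2 change -1.23 ± 0.19, SE, adjusted p = 0.00503), and its second probe set, at 4.64 to 4.82 in hCG-6h samples and 4.72 to 4.86 in hCG-0h samples, lay near the floor in both groups, and the mean of both probe sets gave a log2 change of -0.64.

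Tap1, which pumps peptides into the endoplasmic reticulum for MHC class I, did not pass. It stood at 7.61, 7.69 and 7.34 in hCG-6h samples against 8.51, 7.77 and 7.39 in hCG-0h samples, and the groups overlapped, with hCG-0h sample 1 high. Its log2 change was -0.34 ± 0.28 (SE, adjusted p = 0.464), and its other bright probe set had 7.44, 7.54 and 7.29 at hCG-6h against 7.65, 7.29 and 7.33 at hCG-0h. Psmb9 and Tap1 start 225 bases apart on opposite strands, at the ends of the stretch shown above, in which neither motif was found. Psmb9, Tap1, Psmb8 and Tap2 follow each other in that order in the reference gene table with no protein-coding gene between them, and Tap2, the partner of Tap1, named for its place, averaged 7.24 ± 0.11 at hCG-6h and 7.35 ± 0.25 at hCG-0h (SD, n = 3 each, adjusted p = 0.686).

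Other genes of the pathway were read from lists that hold no gene of the 41, with 102 of 120 listed genes measured, of which 8 rose, 13 fell and 81 did not pass, or 20.6% called, against 21.3% of all genes. These counts moved with single samples, to 4 rises without hCG-6h sample 3 and to 8, 7 and 8 falls without hCG-0h sample 2, hCG-0h sample 3 and hCG-6h sample 2. Their median log2 change was -0.05, and the lists were drawn up with earlier results of these data known.

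Of 9 measured interferon ligand genes 0 passed by limma, against 21.3% of all genes. In both groups 7 of the 9 lay at or under the 90th percentile of sensory receptors. The other 2, Ifna1 and Ifna5, named after their values were seen, lay above the dim limit. Ifna1, an interferon-alpha, had 7.41, 7.45 and 7.51 in hCG-6h samples against 8.24, 7.60 and 8.17 in hCG-0h samples, lower without overlap and without passing (adjusted p = 0.0795, unadjusted p = 0.0202). Ifna5 averaged 6.55 ± 0.22 at hCG-6h and 6.57 ± 0.11 at hCG-0h (SD, n = 3 each). Whether the probe sets of Ifna1 and Ifna5 also read other interferon-alpha genes was not tested. Ifnb1, interferon-beta, had 4.64, 4.20 and 4.25 in hCG-6h samples against 4.37, 4.17 and 4.15 in hCG-0h samples. Ifng, interferon-gamma, had 4.86, 5.11 and 4.83 at hCG-6h against 5.10, 4.77 and 4.83 at hCG-0h. Ifnb1 and Ifng stayed near the floor in all 6 samples.

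In signal transduction 3 of 17 genes rose and 2 fell, or 29.4% called, against 21.3% of all genes. Il10rb, the receptor chain shared by interleukin-10 and the lambda interferons, rose 3.26-fold, to 9.06, 8.33 and 8.81 in hCG-6h samples, against 7.13, 7.13 and 6.83 in hCG-0h samples (adjusted p = 0.00161). Irf2bpl, an IRF2-binding protein relative, rose 2.80-fold, and Cish, a feedback inhibitor of cytokine receptors, rose 2.62-fold. The call of Cish was lost when sample 2 or 3 of either group was left out (adjusted p = 0.0566 to 0.0699). Jak1, the kinase of all these interferon receptors, was lower by 0.37 on the log2 scale, at 11.45, 11.38 and 11.39 at hCG-6h against 11.74, 11.78 and 11.82 at hCG-0h, and its call was lost without any sample but hCG-0h sample 1 (adjusted p = 0.0659 to 0.0904). Pias1, an inhibitor of STAT signalling, fell by 0.65, with its call lost without any sample but hCG-6h sample 1 (adjusted p = 0.0618 to 0.119) and with the mean of its probe sets (adjusted p = 0.244). Tyk2, the second kinase of the type I receptor, averaged 7.34 ± 0.22 at hCG-6h and 7.15 ± 0.21 at hCG-0h (adjusted p = 0.481).

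In nucleic acid sensing 4 of 23 genes rose and 2 fell, or 26.1% called, against 21.3% of all genes. Trim65, a ligase that activates MDA5, rose 5.04-fold, to 9.31, 8.71 and 8.96 at hCG-6h, against 7.32, 5.93 and 6.73 at hCG-0h (adjusted p = 0.00428). Tnfaip3, the deubiquitinase A20 that damps inflammatory signalling, rose 2.80-fold, a call lost without hCG-6h sample 3 (adjusted p = 0.0539) and with the mean of its probe sets (adjusted p = 0.0653). Sting1, the adaptor of cytosolic DNA sensing, rose 1.6-fold, with hCG-0h samples near the floor, and Myd88, the adaptor of Toll-like receptors, named after its values were seen, rose 1.57-fold. The Myd88 call was lost without hCG-6h sample 3 and without hCG-0h samples 1 or 3 (adjusted p = 0.0503 to 0.0555). Unc93b1, the chaperone of endosomal Toll-like receptors, was 2.19-fold lower, and Cyld, a deubiquitinase, 1.71-fold lower. The Unc93b1 call ended without hCG-6h sample 3 and without hCG-0h samples 1 or 2 (adjusted p = 0.0563 to 0.0633), and that of Cyld when any 1 sample was left out (adjusted p = 0.0628 to 0.131). With the mean of its probe sets Cyld had a log2 change of -0.20 against -0.78 and was not called (adjusted p = 0.36). Mavs, the adaptor of RIG-I and MDA5, averaged 7.16 ± 0.10 at hCG-6h and 6.90 ± 0.09 at hCG-0h and did not pass (adjusted p = 0.142).

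Among 42 further interferon-stimulated genes 1 rose and 6 fell, or 16.7% called, against 21.3% of all genes. Herc6, the mouse ligase that attaches ISG15, was 3.80-fold lower, at 6.30, 4.97 and 6.19 in hCG-6h samples against 7.90, 7.81 and 7.53 in hCG-0h samples (log2 change -1.93, adjusted p = 0.00948), and the mean of its probe sets gave a log2 change of -0.92. Iigp1, a GTPase that attacks the vacuoles of parasites, was 2.21-fold lower, at or under 5.45 in all samples, and Parp14, an ADP-ribosyltransferase, 1.98-fold lower. The mean of their probe sets gave smaller log2 changes, of -0.66 against -1.14 for Iigp1 and of -0.50 against -0.98 for Parp14, and both were still called. Slfn10-ps, a schlafen pseudogene, was the gene that rose, 1.97-fold, and its call was lost without any sample but hCG-6h sample 2 (adjusted p = 0.071 to 0.105). Eif2ak2, the kinase PKR that stops translation on viral RNA, averaged 8.50 ± 0.26 at hCG-6h and 8.86 ± 0.26 at hCG-0h (adjusted p = 0.238). The median log2 change of these genes was -0.12.

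In the MHC class I pathway 3 of 11 genes fell and none rose, or 27.3% called, against 21.3% of all genes. Erap1, the peptidase that trims peptides in the endoplasmic reticulum, was 1.61-fold lower, Psme1, an activator subunit of the proteasome, 1.52-fold lower, and Tapbp, which bridges the peptide transporter and MHC class I, 1.49-fold lower. The Tapbp call was lost without hCG-0h sample 3, hCG-6h sample 1 or hCG-6h sample 2 (adjusted p = 0.0528 to 0.068), and with the mean of its probe sets (adjusted p = 0.209). B2m, the light chain of MHC class I, had 12.82, 12.79 and 12.78 at hCG-6h against 12.80, 12.94 and 12.81 at hCG-0h (adjusted p = 0.759).

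**Figure D4:**
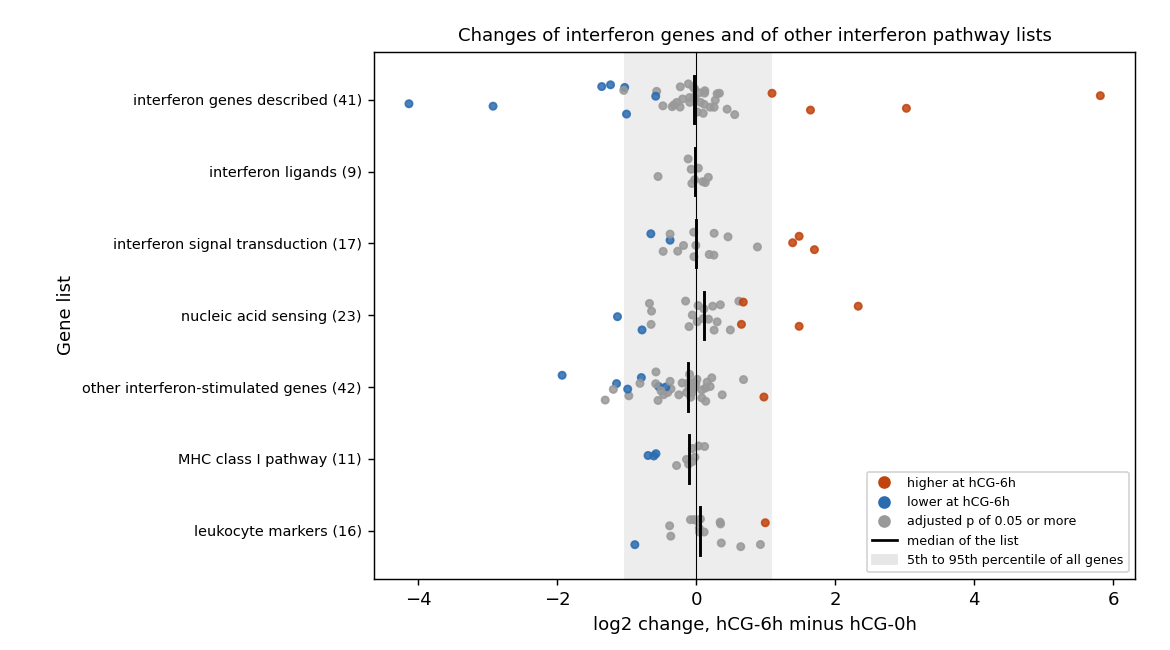
Log2 change (hCG-6h minus hCG-0h) of each gene in the interferon list, in 5 lists of other pathway genes and in the leukocyte markers, with the number of measured genes in brackets. Black bars are medians, which lie between -0.12 and 0.11, and the grey band runs from the 5th to the 95th percentile of all genes (-1.02 to 1.08).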

How the data were processed

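Total RNA of 6 cumulus cell samples was amplified, labelled and put on single-colour expression arrays. The values deposited by the authors are log2 levels of 45101 probe sets. Software given per the submitters' processing notes is GCOS and version 1.1 of Affymetrix Expression Console, with RMA, a method that subtracts background, quantile-normalises arrays and summarises probes. Array medians were 6.43 to 6.46, and the number of arrays limits precision. Genes were named from the platform annotation: 34958 probe sets had 1 symbol, 932 several, and 9211 were not listed. This gave 18194 genes. Samples were grouped by title, and hCG-6h was compared with hCG-0h in limma 3.58.1 (R 4.3.3, lmFit and eBayes) with group as the single term and dim genes kept. P-values are two-sided, and genes were called at 0.05 after Benjamini-Hochberg adjustment across the 18194 genes. Folds are 2 to the power of the log2 change. SE is limma's standard error and SD that of the 3 samples.

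The 41 genes, the other pathway lists and the markers were chosen with earlier results of these data known, so no direction of a list is independent evidence. The text names all 41 genes. Of each pathway list it names up to 3 called genes a direction, besides Jak1, Tyk2, Mavs, Eif2ak2, B2m, Ifnb1 and Ifng, and of each marker list the gene with the highest mean, besides Ptprc, and other genes are said to be named after their values were seen. Cd52, Cdh5, Dppa3, Myd88, Ifna1, Ifna5, Psmb10 and Tap2 fall outside that rule. Alternatives were a block for the sample number, robust variance with a trend, repeated quantile normalisation, median centring, removal of dim genes, array weights, averaged probe sets, all probe sets, hCG-6h sample 1 alone, and the omission of single samples. The fit was tested on simulated data with 200 genes changed, fewer than the 3873 called here. It recovered 12% of log2 changes of 0.5, 56% of 1, 94% of 2 and 98% of 4. Of its 139 calls 9 were false. Smaller changes can thus be missed with 3 samples a group.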

Additional observations from a re-analysis of the deposited data

How the results depend on the processing

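Over 15 other settings, 603 values of the 41 genes were recomputed (dim genes have no value where the dimmest 1 in 3 are left out). In 589 the side of the threshold was that of the reported fit, with the same direction wherever the gene was called. In the others 13 calls were lost (6 of Irf1, 5 of Isg20, 1 each of Usp18 and Ifitm3) and 1 was gained. Ifnar2 had a log2 change of -0.03 in the reported fit and was not called. The mean of its probe sets put it at 0.54 (adjusted p = 0.00735), because that mean takes in the probe set that rose. Oasl2, Rnf125, Slfn4, Bst2, Ifitm2, Psmb8 and Psmb9 were called in each setting, and the mean of its probe sets moved Psmb8 to -0.64 because the second lies near the floor. With hCG-6h sample 1 alone, assumed to vary like the other samples, 809 genes rose and 767 fell, 2 and 5 of the 41 did, and 2 and 4 of the other pathway genes did. Usp18 was not called there (adjusted p = 0.106). When single samples were omitted 3 to 4 of the 41 genes rose and 6 to 7 fell, and 4 to 7 of the other pathway genes rose and 7 to 10 fell. With the sample number as a replicate block 1670 genes rose and 1594 fell, 3 and 7 of the 41 did, 8 and 9 of the other pathway genes did, and Isg20 was lost (adjusted p = 0.0608). Deviations of same-numbered samples were hardly correlated (r across genes 0.0115, -0.0156 and 0.0286 for numbers 1 to 3). The best match was the same number for hCG-6h samples 1 and 3, and not for sample 2. Whether the numbers pair the samples cannot be settled from so few. No scaling moved the median change of all genes beyond -0.025. Under other limits 6 to 10 of the 41 genes lay near the floor in both groups in place of 7.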

Other observations

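Immunity-related GTPases and guanylate-binding proteins, large GTPases that interferon-gamma is known to induce and that attack the vacuoles of intracellular parasites, were picked out after their values were seen, so no test is given for the group. Beside Iigp1, Gbp2 stood at 4.67, 4.46 and 4.48 in hCG-6h samples against 5.14, 5.39 and 5.44 in hCG-0h samples, and Gbp3 at 3.36, 3.29 and 3.38 at hCG-6h against 3.87, 3.72 and 3.74 at hCG-0h. Both were near the floor and did not overlap, and both passed in limma (adjusted p = 0.00545 and 0.0221). Irgm1 averaged 5.26 ± 0.37 at hCG-6h and 6.06 ± 0.55 at hCG-0h, Igtp 6.45 ± 0.36 at hCG-6h and 6.92 ± 0.24 at hCG-0h, and Ifi47 4.88 ± 0.16 at hCG-6h and 5.85 ± 0.82 at hCG-0h (SD, n = 3 each). These last 3 were lower in the mean and did not pass (adjusted p = 0.119, 0.181 and 0.129), and the Gbp3 call was lost when any 1 sample was left out (adjusted p = 0.0508 to 0.0736).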
